A study of Mus musculus with 14 samples.

Results

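The 92 genes described here are the nuclear-encoded genes of oxidative phosphorylation, and their RNA was measured in mouse hippocampus. They were chosen by a rule on their symbols, which uses none of their values. Earlier results of these data were known when the choice was made. The symbols in the gene column of the authors' comparison tables were split at commas, and those that begin with Ndufa, Ndufb, Ndufc, Ndufs, Ndufv, Uqcr, Cox4i, Cox5, Cox6, Cox7, Cox8 or Atp5, or that equal Sdha, Sdhb, Sdhc, Sdhd or Cyc1, were kept, without pseudogene symbols. This gave 92 of the 53321 symbols in those tables. Of the 92, 91 had a value in at least 1 library and 85 in all 14. Cox8c, a cytochrome c oxidase subunit gene known from testis, was listed at 0 in all 14 libraries.

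All mice were C57BL6 and 30 days old, and all received a gavage for 2 weeks from 2 weeks of age. The groups were 3 libraries from KMT2D+/+ mice on methylcellulose vehicle (wild-type vehicle), 3 from KMT2D+/bGeo mice on vehicle (mutant vehicle), 5 from KMT2D+/+ mice given TAK-418 at 1 mg/kg/day (wild-type TAK-418) and 3 from KMT2D+/bGeo mice given the same dose (mutant TAK-418). KMT2D is a histone H3 lysine 4 methyltransferase, and TAK-418 inhibits the histone demethylase LSD1. Each library has its own number in the labels, which do not say from which animal it came, so the p-values measure the spread between these libraries.

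Oxidative phosphorylation takes place in the inner mitochondrial membrane. Complexes I and II pass electrons from NADH and succinate to ubiquinone, complex III passes them on to cytochrome c, and complex IV passes them to oxygen. Complexes I, III and IV pump protons across the membrane, and complex V, the ATP synthase, uses the resulting gradient to make ATP. Neurons draw most of their ATP from this pathway. Most subunits are encoded in the nucleus, and for several subunits of complexes IV and V there is more than one gene, with one form found in most tissues and another in muscle, lung or testis.

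Levels are given as scaled abundance, which is the authors' length-normalised transcript score summed over a gene's assembled transcripts and scaled between libraries. Summed Kmt2d abundance was 12.5 to 17.99 in the 8 wild-type libraries and 9.34 to 14.6 in the 6 mutant libraries, and the ranges overlapped. It sums all transcripts of the gene, so it does not separate the bGeo allele. Wild-type TAK-418 replicate 1 was the deepest library, with a relative depth of 168 M by the spacing of its low values, and the other 13 had 35.0 to 59.8 M. The markers of neurons (Rbfox3, Snap25, Syt1) were all above 0. They summed to 824 in wild-type TAK-418 replicate 1, 961 in mutant vehicle replicate 3 and 1468 to 1618 in the others. Other neuronal lists did not show this drop. The 5 hippocampal excitatory neuron markers summed to 333.5 and 420.9 in these 2 libraries and 315.7 to 421.2 in the others. The 6 parvalbumin interneuron markers summed to 313.8 and 276.7 in them and 278.6 to 310.0 in the others. The reason for the low sums of Rbfox3, Snap25 and Syt1 was not tested. The 12 choroid plexus markers summed to 7290 in wild-type vehicle replicate 3, 5902 in mutant vehicle replicate 1, 1122 in mutant vehicle replicate 3 and 747 in mutant TAK-418 replicate 1, and to 101 to 165 in the other 10. The counts over members in comparisons that use vehicle libraries are given with and without the first 2 of them. In bulk tissue, fewer cells of a type and less RNA per cell cannot be told apart.

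Most subunit genes were expressed at high levels, with those of complexes IV and V at the top, while a few isoform genes of complex IV were close to 0. Together they held 2.53% to 3.05% of the summed abundance of a library. The mean over 14 libraries had a median of 118 over the 91 members with a value. The highest was 756 for Atp5b, the catalytic beta subunit of ATP synthase, and the lowest was 0.48 for Cox7b2, a testis-associated subunit gene of complex IV. The median member was at 233 in complex IV, 195 in complex V, 137 in complex III, 109 in complex II and 99.3 in complex I. The complex I assembly factors, which build the complex and are not part of it, had a median of 23.2. These levels are per length of the assembled transcript, so the order of genes depends on the assembly. For vehicle wild types, the authors' deposited table put Ndufa11 at 15.9, Cox7b at 111 and Atp5h at 311, where the means over all 14 libraries here were 92.6, 240.4 and 156; these 3 genes were chosen after their values were seen.

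**Figure D1:**
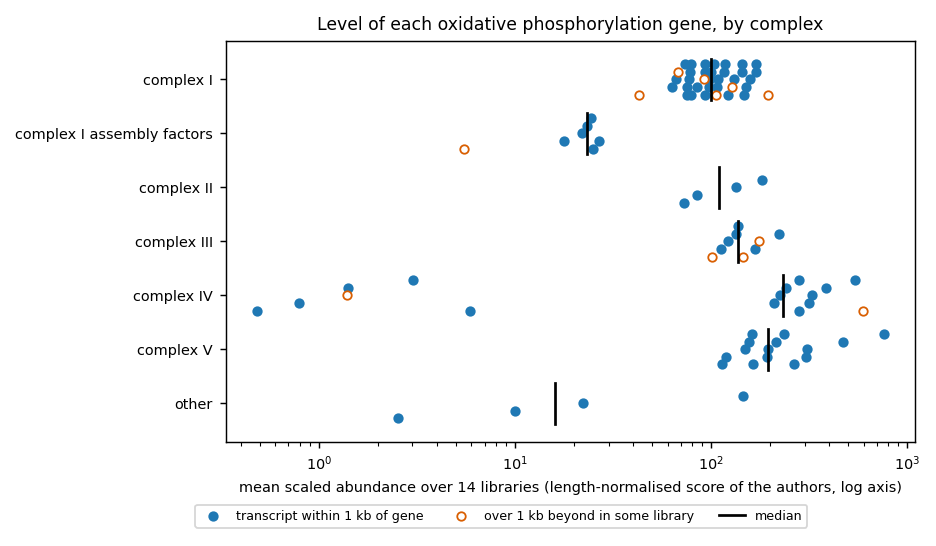
Mean scaled abundance of the 91 members with a value, on a log axis, in 1 row per complex. Each point is a gene, black bars are medians, and open points are the 12 genes with a transcript that reached over 1 kb beyond the gene in some library. Most subunits lie between 40 and 800, and a separate group of complex IV isoform genes lies below 6.

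Within complex I, the means of the 36 subunit genes spanned 42.8 (Ndufb2) to 194 (Ndufb9). The Ndufb2 mean joins 8 libraries at 5.6 to 10.1, whose transcript ran beyond the gene, with 6 at 80.8 to 97.0. Its place as the lowest therefore depends on the assembly. The flavin-site subunit Ndufv1 was at 107 and the large iron-sulfur subunit Ndufs1 at 73.3. Next to Ndufb9, Ndufa13 at 169 and Ndufv2 at 169 were the highest, and next to Ndufb2, Ndufa7 at 63.2 and Ndufs4 at 66.4 were the lowest. Of the 7 assembly factors, Ndufaf5 was the highest at 27.0 and Ndufaf6 the lowest at 5.53. In complex II, the flavoprotein Sdha was at 182, the iron-sulfur protein Sdhb at 134, and the membrane anchors Sdhc and Sdhd at 85.1 and 72.4.

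In complex III, Uqcrh, the hinge protein, was the highest at 222. The core proteins Uqcrc1 and Uqcrc2 were at 137 and 145, the Rieske iron-sulfur protein Uqcrfs1 at 122, and Cyc1, cytochrome c1, at 112. In complex IV, Cox8a at 596 and Cox6a1 at 540 led the members, followed by Cox6c at 387, Cox5b at 325 and Cox6b1 at 315. Ndufa4, named after complex I but known as a subunit of complex IV, was at 280. In complex V, the alpha subunit Atp5a1 at 469 followed Atp5b, and Atp5g2 at 113 and Atp5d, the delta subunit, at 119.5 were the lowest. The Atp5d mean joins libraries at 55.5 to 81.4 with others at 143 to 165. The 4 remaining members were Cox7a2l, which joins complexes III and IV in supercomplexes, at 145, Atp5sl at 22.2, Atp5s at 9.95 and Ndufa4l2, a hypoxia-induced paralog of Ndufa4, at 2.53.

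Sdha and Atp5b were among the steadiest members across libraries. Sdha was at 187, 175 and 177 in the wild-type vehicle libraries, 187, 184 and 184 in the mutant vehicle libraries, 186, 173, 182, 184 and 182 in the wild-type TAK-418 libraries and 178, 189 and 178 in the mutant TAK-418 libraries. Atp5b was at 776, 775 and 741 in wild-type vehicle, 791, 787 and 761 in mutant vehicle, 754, 713, 788, 727 and 714 in wild-type TAK-418 and 731, 760 and 762 in mutant TAK-418 libraries. All 4 groups overlapped for both genes. The standard deviation within groups, on the log2 scale, was 0.04 for Sdha and 0.05 for Atp5b, beside a median of 0.12 over the 91 members.

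Upstream sequence was looked at because the members shared features there that the rule did not use. Entries for 76 of the 92 members were found among RefSeq promoter windows of GRCm38.p6, which run from 250 bases before to 50 bases after the annotated start. The NRF1 motif, CCGGAAG for the ETS family with GABP, and AAGATGGC for YY1 were searched on both strands. NRF1 and GABP are known activators of respiratory genes. The NRF1 motif was in 19 of the 76 members (25.0%) and in 5.19% of the 27025 genes with a window. The ETS motif was in 17 members (22.4%) and 9.93% of all genes, and the YY1 motif in 11 members (14.5%) and 3.19% of all genes. None of these motifs contains another. A match is a description of letters and shows no binding, and no match says only that these letters are not in the window.

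Upstream stretches of 6 members are printed 5′ to 3′ in the direction of the gene, without any annotated exon, with motif matches in capitals. They show one gene with a pair of NRF1 matches, one with a single NRF1 match, one with an ETS match, and 3 stretches without a match from genes whose levels are described in the results that follow. Ndufs8 and Cox6a1 each have an ETS match in the window that lies outside the printed stretch. Cox6a1 is from chr5:115348982-115349129, Ndufs5 from chr4:123718203-123718352, Uqcrh from chr4:116075072-116075221, Ndufs8 from chr19:3912775-3912924, Atp5g1 from chr11:96075671-96075820 and Cox8b from chr7:140900447-140900596, all on the minus strand of GRCm38.p6.
Cox6a1: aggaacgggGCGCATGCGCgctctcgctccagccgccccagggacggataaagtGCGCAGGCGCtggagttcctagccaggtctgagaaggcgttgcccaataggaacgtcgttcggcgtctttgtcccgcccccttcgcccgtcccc
Ndufs5: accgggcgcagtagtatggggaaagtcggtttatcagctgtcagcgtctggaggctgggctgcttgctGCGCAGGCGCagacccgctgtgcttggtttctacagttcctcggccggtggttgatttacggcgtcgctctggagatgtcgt
Uqcrh: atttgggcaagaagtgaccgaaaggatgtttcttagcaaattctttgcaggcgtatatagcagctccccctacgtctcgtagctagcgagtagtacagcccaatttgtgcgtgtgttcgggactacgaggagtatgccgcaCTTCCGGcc
Ndufs8: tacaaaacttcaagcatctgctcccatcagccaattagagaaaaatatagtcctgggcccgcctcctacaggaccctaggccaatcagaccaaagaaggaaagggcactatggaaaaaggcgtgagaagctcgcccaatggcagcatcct
Atp5g1: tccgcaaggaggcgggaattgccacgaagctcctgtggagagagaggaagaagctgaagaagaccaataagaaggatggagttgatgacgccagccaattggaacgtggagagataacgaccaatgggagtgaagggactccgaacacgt
Cox8b: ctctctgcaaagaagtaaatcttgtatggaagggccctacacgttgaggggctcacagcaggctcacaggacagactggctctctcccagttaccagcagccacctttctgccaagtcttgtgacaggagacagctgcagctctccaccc

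The drug effect in wild-type mice asks what TAK-418 does where both Kmt2d copies are intact. No member passed the test. Members were on the whole slightly lower in wild-type TAK-418 than in wild-type vehicle libraries: the limma log2 difference was below 0 for 75 of 91 members, beside 51% of the 16568 genes tested (49% were above 0), and its median over members was -0.10, beside a median of about 0 over all genes. By limma with Benjamini-Hochberg adjustment over all genes, 0 of 91 members were under an adjusted p of 0.05, beside 0.00604% of all genes, and 10 of 91 were under an unadjusted p of 0.05, beside 8.44% of all genes. Of these 10, 9 were lower with the drug, beside 3.27% of all genes, and 1, Uqcrb, was higher, beside 5.17%. The 2 groups did not overlap for 7 members, beside 6.34% of all genes: 6 were lower, beside 2.4%, and 1 was higher, beside 3.94%. By group, 31 of 36 complex I genes, all 7 assembly factors, 3 of 4 in complex II, 6 of 9 in complex III, 13 of 16 in complex IV, 14 of 15 in complex V and 1 of the 4 remaining members had a difference below 0. The medians were -0.14 in complex I, -0.13 in complex V, -0.04 in complex II and 0.01 in the remaining members, and differences between these groups were not tested.

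Atp5g1, one of the genes for the c-ring subunit of ATP synthase (chr11:96068852-96075670, minus strand, GENCODE M21), had the smallest p in this comparison. Its abundance was 199, 217 and 199 in wild-type vehicle, 177, 168, 193, 174 and 172 in wild-type TAK-418, 220, 204 and 195 in mutant vehicle and 185, 181 and 199 in mutant TAK-418 libraries. All 5 wild-type TAK-418 libraries lay under all 3 wild-type vehicle libraries, while the 2 mutant groups overlapped. The means were 177 ± 9.68 (SD, n = 5) and 205 ± 10.3 (SD, n = 3), a log2 difference of -0.21 (SE 0.06), with a limma p of 0.00285 and an adjusted p of 0.322. Over the alternative settings its adjusted p was 0.212 to 0.867, and with abundance weighted by transcript length the difference was -0.12.

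Ndufa5 and Ndufb6, both accessory subunits of complex I, followed. Ndufa5 was at 143, 149 and 138 in wild-type vehicle and 123, 115, 129, 120 and 130 in wild-type TAK-418 libraries, with no overlap (log2 difference -0.21, SE 0.08, limma adjusted p 0.477). Ndufb6 was at 97.7, 91.3 and 85.3 against 81.9, 77.98, 84.4, 77.0 and 77.3, also with no overlap (log2 difference -0.19, SE 0.08, limma adjusted p 0.509). Their adjusted p over the alternative settings was 0.347 to 0.908 for both genes, and with a trend along exon length removed the Ndufb6 difference was -0.12. Sdha, by contrast, had a log2 difference of 0.02 (SE 0.04, limma adjusted p 0.918).

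The size of the downward tilt depended on single libraries. Without wild-type vehicle replicate 3, the library with the most choroid plexus RNA, the median over members was -0.17, and 27 of 91 were under an unadjusted p of 0.05, beside 1454 of 16510 genes. Without both libraries rich in choroid plexus RNA the median was also -0.17, with 80 of 91 members below 0 and 27 under an unadjusted p of 0.05, beside 1490 of 16444 genes. No member was under an adjusted p of 0.05 in either case. Leaving out any other single library gave medians from -0.13 to -0.07. The median log2 deviation of the members from their own means was 0.09, 0.11 and -0.05 in wild-type vehicle, 0.11, 0.11 and -0.05 in mutant vehicle, -0.08, -0.08, 0.04, -0.08 and -0.02 in wild-type TAK-418 and -0.03, 0.03 and 0.08 in mutant TAK-418 libraries. The groups overlapped, and within each group the libraries lay further apart than most group means did.

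The members are rather short genes, and other short genes went up and down with them from library to library. The combined exon length had a median of 1696.5 bases over the 92 members and 4201 bases over all genes tested. All classes of other genes used here held only genes with a level above 20 in every library. The 31 other genes with exons under 800 bases had medians of 0.11, 0.12 and -0.07 in wild-type vehicle, 0.14, 0.13 and -0.06 in mutant vehicle, -0.12, -0.04, 0.09, -0.11 and -0.05 in wild-type TAK-418 and -0.03, 0.06 and 0.08 in mutant TAK-418 libraries. In the class that holds the members' median length, the 803 other genes of 1500 to 3000 bases moved less, between -0.05 and 0.06. The 180 other genes of 800 to 1500 bases lay between -0.09 and 0.11. For the drug in wild types, the difference of library medians was -0.02 in the first of these classes and -0.08 in the second. It was -0.09 for the members and -0.10 for the class under 800 bases. For the genotype under TAK-418 it was 0.03, 0.06, 0.07 and 0.08 in the same order. The 1616 other genes with exons of 3000 to 6000 bases stayed within -0.03 and 0.02 in all 14 libraries. With a trend along exon length removed from each library, the median over members was -0.07 for the drug in wild types and 0.04 for the genotype under TAK-418. For the drug in wild types, 69 of 91 members were then below 0. In that run 6 of 91 were under an unadjusted limma p of 0.05, beside 1400 of 16568 genes. The part of gene length in the result was not tested beyond that.

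**Figure D2:**
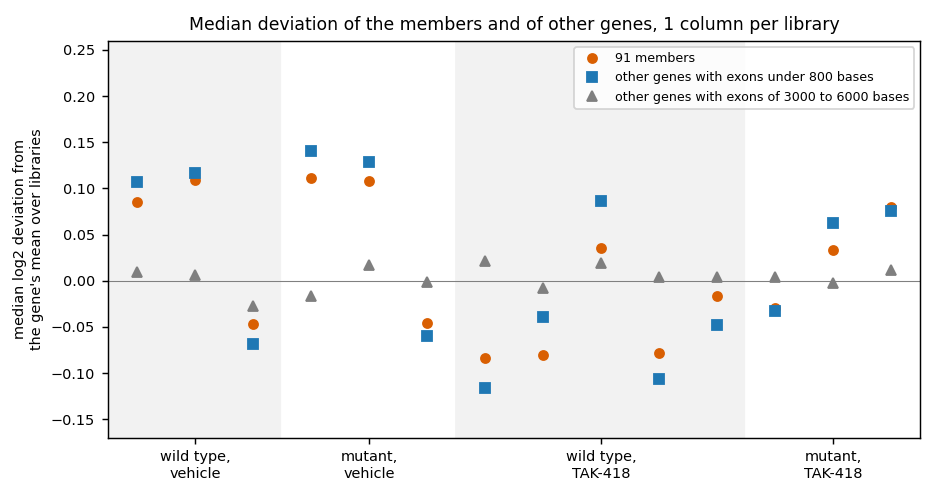
Median log2 deviation of each library from the gene means, for the 91 members (circles), 31 other genes with exons under 800 bases (squares) and 1616 other genes with exons of 3000 to 6000 bases (triangles), with 1 column per library and shading by group. The members lie between -0.08 and 0.11 and go up and down with the other short genes, while the longer genes stay near 0.

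The genotype effect under TAK-418 compares mutant with wild-type mice that both received the drug. Its wild-type TAK-418 libraries are the same as in the drug comparison in wild types, so the 2 results are not independent. The log2 difference was above 0 for 78 of 91 members, beside 51.1% of all genes (48.8% were below 0), with a median of 0.07 over members. By limma, 0 of 91 members were under an adjusted p of 0.05, beside 0.0121% of all genes, and 5 of 91 were under an unadjusted p of 0.05, beside 4.92%. All 5 were higher in mutants, beside 2.4% of all genes higher and 2.52% lower at that p. The groups did not overlap for 8 members, beside 4.57% of all genes; all 8 were higher in mutants, beside 2.2% of all genes higher and 2.37% lower. With a trend along exon length removed, 69 of 91 members were above 0, 2 of 91 were under an unadjusted p of 0.05, beside 783 of 16568 genes, and the median was 0.04. In the fit without that trend, the median was 0.13 in complex III, 0.09 in complex V, 0.08 in complex IV, 0.07 in complex I and 0.03 in complex II.

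Ndufs6, a zinc-binding subunit of complex I, had the smallest p. It was at 78.9, 92.6 and 90.9 in mutant TAK-418 and 62.4, 74.3, 77.8, 68.0 and 43.25 in wild-type TAK-418 libraries, where the fifth library was the lowest. The vehicle groups were at 84.6, 90.4 and 75.5 in wild types and 82.8, 84.5 and 73.1 in mutants. The log2 difference was 0.44 (SE 0.16), with a limma p of 0.0151 and an adjusted p of 0.926. With abundance weighted by transcript length it was 0.08, and without wild-type TAK-418 replicate 5 it was 0.31. Atp5c1, the gamma subunit that forms the rotor stalk of ATP synthase, was at 202, 206 and 213 in mutant TAK-418 and 155, 187, 197, 146 and 193 in wild-type TAK-418 libraries (log2 difference 0.25, SE 0.09, limma adjusted p 0.926). Ndufs8, an iron-sulfur subunit of complex I, was at 78.6, 81.4 and 81.5 against 74.3, 67.8, 75.8, 71.9 and 77.2 (log2 difference 0.13, SE 0.05, limma adjusted p 0.926). For all 3 genes the mutant libraries lay above every wild-type library on the drug. With abundance weighted by transcript length the Atp5c1 difference was 0.12. With no scaling the Atp5c1 difference was 0.16 and that of Ndufs8 was 0.04, and with a trend along exon length removed that of Ndufs8 was 0.09. Their adjusted p ran from 0.678 upward over the alternative settings.

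The genotype effect under vehicle asks what loss of 1 Kmt2d copy does in untreated mice, and the members as a group had a median near 0 with all libraries. The log2 difference was above 0 for 51 of 91 members, beside 50.1% of all genes, and below 0 for 40, beside 49.2%, with a median of 0.01. By limma, 0 of 91 members were under an adjusted p of 0.05, beside 0% of all genes, and 2 of 91 were under an unadjusted p of 0.05, beside 5.46%. The groups did not overlap for 3 members, Uqcrb and Ndufb2, both higher in mutants, and Cox4i2, lower in mutants, beside 8.91% of all genes, 4.41% higher and 4.5% lower. Of the 79 members whose leading transcript ended within 1 kb of the gene in all libraries, 76 had a difference within 0.3 of 0 on the log2 scale, and the median standard error was 0.09. Without the 2 libraries rich in choroid plexus RNA, the median over the 91 members was -0.07, with 70 of 91 below 0 and 5 under an unadjusted p of 0.05, beside 894 of 16444 genes. Without mutant vehicle replicate 3 it was 0.06, with 72 of 91 above 0, so the direction turned on the library left out.

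Cox4i2 encodes the lung and hypoxia form of cytochrome c oxidase subunit 4. It was at 1.52, 2.27 and 1.57 in wild-type vehicle, 1.13, 1.19 and 1.37 in mutant vehicle, 1.34, 1.56, 1.21, 1.15 and 1.36 in wild-type TAK-418 and 1.32, 1.11 and 1.54 in mutant TAK-418 libraries. The mutant vehicle libraries lay under the wild-type vehicle libraries, of which the second stood highest. The difference was -0.33 on the log2 scale with a pseudocount of 0.88 added (SE 0.13), which understates changes at this level, with a limma p of 0.0230 and an adjusted p of 0.816. Without wild-type vehicle replicate 2 the difference was -0.20, and with a pseudocount 10 times as large it was -0.08. Its adjusted p was 0.597 to 1 over the alternative settings.

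The drug effect in mutants asks what TAK-418 does in the Kmt2d heterozygotes. The log2 difference was below 0 for 59 of 91 members, beside 48.9% of all genes (51% were above 0), with a median of -0.03. By limma, 0 of 91 members were under an adjusted p of 0.05, beside 0.00604% of all genes, and 1 of 91, Cox6a2, was under an unadjusted p of 0.05, beside 4.39%. The groups did not overlap for 4 members, beside 8.18% of all genes: 2 were higher, beside 4.53%, and 2 lower, beside 3.65%. Without mutant vehicle replicate 1, rich in choroid plexus RNA, and without both such libraries, the median was -0.01, with 49 of 91 below 0. Without mutant vehicle replicate 3 it was -0.08, with 73 of 91 below 0. The members without overlap were Cox6a2 and Ndufaf6, higher with the drug, and Cox6c and Ndufa11, lower with the drug.

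Cox6a2 is the heart and muscle form of subunit 6A and is also known from parvalbumin interneurons in the brain. It was at 4.55, 5.50 and 4.41 in mutant vehicle, 6.24, 7.22 and 6.33 in mutant TAK-418, 6.35, 7.04 and 5.10 in wild-type vehicle and 4.40, 6.42, 6.53, 5.19 and 7.21 in wild-type TAK-418 libraries. The mutant vehicle libraries lay below all 3 mutant TAK-418 libraries and overlapped both wild-type groups. The log2 difference with the drug in mutants was 0.39 (SE 0.16), with a limma p of 0.0284 and an adjusted p of 1, and 0.18 with a pseudocount 10 times as large. The 6 parvalbumin interneuron markers, all above 0, summed to 277 to 299 in mutant vehicle and 279 to 310 in mutant TAK-418 libraries. Of 5 striated muscle markers, 4 were above 0 in some library and Actc1 was at 0 in all, and their sum was 4.6 to 8.0 over the 14 libraries. Their part in the Cox6a2 values was not tested.

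Treated mutants were also set against vehicle wild types, the comparison that asks whether the drug brings mutants to the untreated wild-type level. The log2 difference was above 0 for 42 of 91 members, beside 50.1% of all genes, and below 0 for 49, beside 49.7%, with a median of -0.01. This split rested on wild-type vehicle replicate 3: without it, or without both libraries rich in choroid plexus RNA, 72 of 91 members were below 0 and the median was -0.07. In these 2 runs 6 of 91 members were under an unadjusted limma p of 0.05, beside 834 of 16510 and 870 of 16444 genes. By limma, 0 of 91 members were under an adjusted p of 0.05, beside 0.0241% of all genes, and 3 of 91, Uqcrb, Cox7c and Uqcrq, were under an unadjusted p of 0.05, beside 5.38%. The groups did not overlap for 3 members, beside 9.52% of all genes: Uqcrb and Uqcrc1 were higher, beside 5.53%, and Uqcrq was lower, beside 3.99%. Uqcrq, a small subunit of complex III, was at 156, 106 and 166 in mutant TAK-418 and 191, 202 and 178 in wild-type vehicle libraries (log2 difference -0.44, SE 0.19, limma adjusted p 0.905). Cox7c, a small subunit of complex IV, was at 154, 252 and 295 against 350, 366 and 283, with overlap (log2 difference -0.55, SE 0.21, limma adjusted p 0.840). Without mutant TAK-418 replicate 2 the Uqcrq difference was -0.24, and without mutant TAK-418 replicate 1 the Cox7c difference was -0.27. With abundance weighted by transcript length the Cox7c difference was -0.25.

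The interaction asks whether the drug effect differs between genotypes. Its log2 value was above 0 for 62 of 91 members, beside 51.2% of all genes (48.8% were below 0), with a median of 0.06. Without both libraries rich in choroid plexus RNA, 80 of 91 members were above 0, the median was 0.14 and 12 of 91 were under an unadjusted p of 0.05, beside 885 of 16444 genes. With all libraries, by limma, 0 of 91 members were under an adjusted p of 0.05, beside 0.00604% of all genes, and 2 of 91 were under an unadjusted p of 0.05, beside 4.42%. Those were Ndufaf2, an assembly factor of complex I, at 0.28 (SE 0.10, limma adjusted p 0.977), and Uqcrb at -1.26 (SE 0.52, limma adjusted p 0.977). Ndufaf2 was at 25.6, 28.4 and 25.0 in wild-type vehicle, 25.6, 24.3 and 21.6 in mutant vehicle, 23.5, 21.8, 23.4, 25.1 and 25.3 in wild-type TAK-418 and 25.8, 28.0 and 25.4 in mutant TAK-418 libraries.

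**Figure D3:**
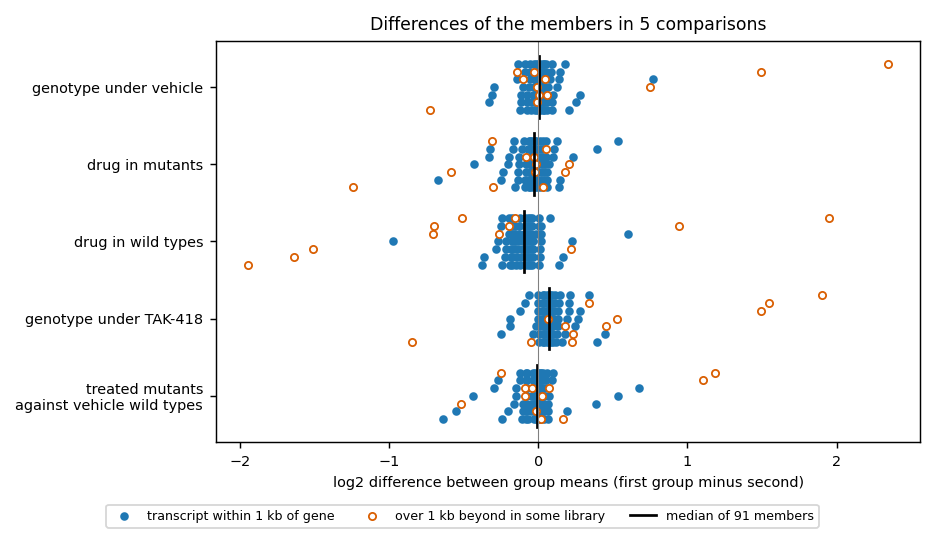
Log2 difference between group means for 91 members in 5 comparisons, as the first group minus the second. Each point is a gene, black bars are medians, and open points are the 12 genes with a transcript that reached over 1 kb beyond the gene in some library. Most points lie within 0.3 of 0, the medians run from -0.10 to 0.07, and the values beyond 1 are open points.

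Every member with a log2 difference beyond 1 in these comparisons was a gene whose transcript ran over 1 kb beyond the gene in some library. For 12 members, the leading assembled transcript reached more than 1 kb outside the annotated gene in at least 1 library. In wild-type TAK-418 replicate 1, the deepest library, this was so for 9 members, and in the other libraries for 0 to 3. Ndufb2, an accessory subunit of complex I (chr6:39592574-39603382, plus strand, GENCODE M21), was at 5.6 to 10.1 in the 8 libraries with such a transcript and 80.8 to 97.0 in the 6 without. All 3 wild-type vehicle libraries had the long form, at 8.21, 7.42 and 8.15, against 9.09, 97.0 and 90.98 in mutant vehicle libraries. In the authors' deposited tables, which hold 1 value per group, the Ndufb2 locus, which also holds Adck2, was at 128 in wild-type vehicle and 127 in mutant vehicle mice, a log2 fold change of -0.004.

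Uqcrb, the ubiquinone-binding subunit of complex III (chr13:66900617-66905378, minus strand, GENCODE M21), was another such gene. It was at 48.4, 49.8 and 46.2 in wild-type vehicle, 100.5, 146 and 176 in mutant vehicle, 51.3, 121, 57.0, 123 and 163 in wild-type TAK-418 and 118, 130.4 and 87.0 in mutant TAK-418 libraries. The leading transcript was 1296 to 1630 bases long in the 3 wild-type vehicle libraries and in wild-type TAK-418 replicates 1 and 3, where Uqcrb was at 46.2 to 57.0. It was 418 to 856 bases long in the other 9 libraries, where Uqcrb was at 87.0 to 176. It reached 1122 to 1173 bases beyond the gene in wild-type vehicle libraries, 937 and 839 in wild-type TAK-418 replicates 1 and 3, and 1872 in mutant TAK-418 replicate 3. The limma log2 difference was 1.49 (SE 0.39, p 0.00245, adjusted p 0.621) for the genotype under vehicle and 0.95 (SE 0.35, adjusted p 0.478) for the drug in wild types. The authors' deposited tables gave Uqcrb at 184 in wild-type vehicle and 187 in mutant vehicle mice, a log2 fold change of 0.02. With transcript abundance weighted by transcript length before summing, the differences were 0.01 for the genotype under vehicle and -0.19 for the drug in wild types, so the direction turned in the second.

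Cox8a, Ndufa12 and Uqcr11 were at 0 in wild-type TAK-418 replicate 1, where the transcript holding their introns was assigned to another gene, and Ndufa6, Ndufb9 and Ndufaf6 were lowest there, at 25.1, 27.4 and 1.85. Cox8a, the ubiquitous form of subunit 8, was at 761, 799 and 417 in wild-type vehicle, 793, 741 and 410 in mutant vehicle, 0, 675, 746, 383 and 709 in wild-type TAK-418 and 711, 422 and 776 in mutant TAK-418 libraries. The values above 0 fell in separate ranges, 383 to 422 in 4 libraries and 675 to 799 in 9, and the low range held at least 1 library of every group. In the authors' deposited tables, the Cox8a locus, which also holds Otub1, was at 803 in wild-type TAK-418 and 839 in mutant TAK-418 mice in one table, and at 851 in wild-type vehicle and 830.1 in mutant vehicle mice in another. Atp5o, the stalk subunit OSCP, ranged from 217 to 256; a second annotated gene carries the same symbol, so its share of the reads is uncertain. Over the 79 members whose leading transcript ended within 1 kb of the gene in every library, the medians were 0.01, -0.03, -0.09, 0.07 and -0.01 in the order of the plot of differences.

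**Figure D4:**
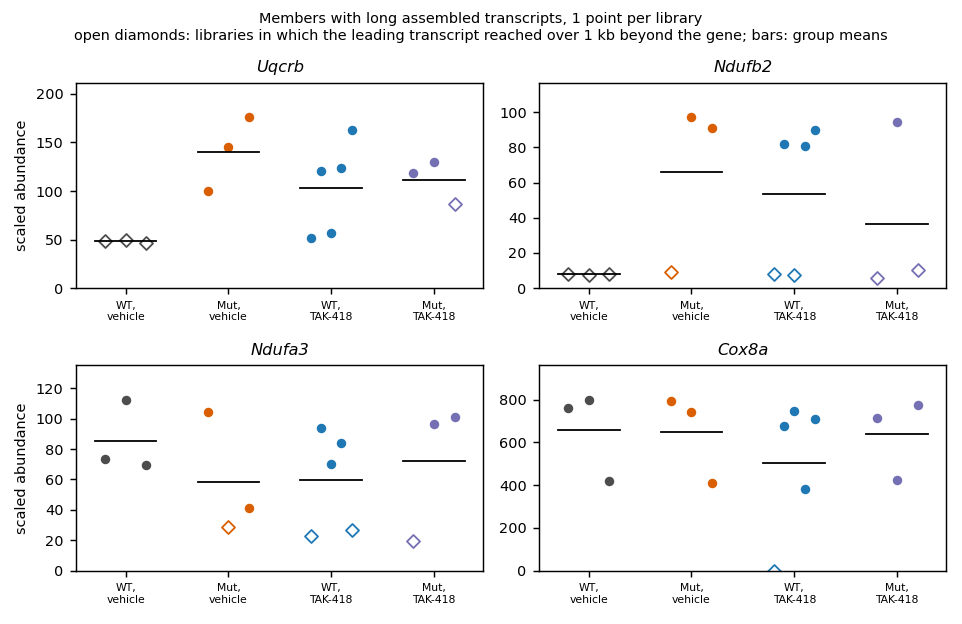
Scaled abundance of Uqcrb, Ndufb2, Ndufa3 and Cox8a, with 1 point per library in 4 groups; bars are group means and open diamonds are libraries whose leading transcript reached over 1 kb beyond the gene. For Uqcrb, wild-type TAK-418 replicates 1 and 3 fall just short of that limit, at 937 and 839 bases. Ndufb2 lies at 5.6 to 10.1 where the diamonds are and at 80.8 to 97.0 elsewhere, and all 3 wild-type vehicle libraries are diamonds for Uqcrb and Ndufb2.

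Several subunits of complex IV have a second gene, and in the hippocampus one form prevailed in each of the 5 pairs given here; the subunit 4 pair is not analysed here. Cox6a1 was at 540 and Cox6a2 at 5.89, Cox6b1 at 315 and the testis form Cox6b2 at 3.01, Cox7a2 at 208 and the muscle form Cox7a1 at 1.39, and Cox8a at 596 and the muscle form Cox8b at 0.79. Cox7b was at 240.4 and Cox7b2 at 0.48, with a value above 0 in 7 of 14 libraries. Cox7b2 was at 0 in all 3 wild-type vehicle libraries. In the other groups it ran from 0 to 1.37, so the groups overlapped.

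Cox8b, Cox7a1 and Cox6b2 were highest in the same 2 libraries, the 2 with the most choroid plexus RNA. Cox8b was at 2.92 in wild-type vehicle replicate 3 and 3.73 in mutant vehicle replicate 1, and at 0 to 0.98 in the other 12 libraries. Cox7a1 was at 3.46 and 5.44 in these 2 libraries and 0 to 2.06 in the others. Cox6b2 was at 4.50 and 5.23 in them and 1.58 to 4.04 in the others. The 2 libraries belong to different genotypes and both to the vehicle groups. The next by choroid plexus markers did not follow throughout. Mutant vehicle replicate 3, with a marker sum of 1122, was at 0.52 for Cox8b, 0 for Cox7a1 and 1.58 for Cox6b2, the lowest Cox6b2 value. Mutant TAK-418 replicate 1, with a sum of 747, was at 0.98, 1.13 and 3.41. In the authors' deposited tables, Cox8b was at 2.52 in wild-type vehicle, 2.83 in mutant vehicle, 0.64 in wild-type TAK-418 and 0.90 in mutant TAK-418 mice. The part of choroid plexus RNA in these values was not tested.

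**Figure D5:**
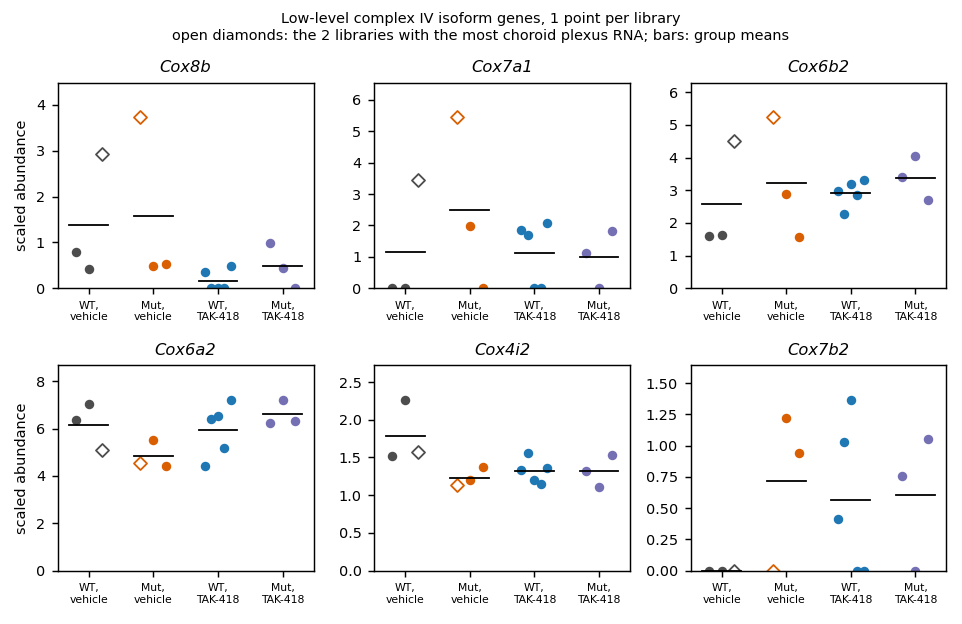
Scaled abundance of 6 low-level complex IV isoform genes, with 1 point per library in 4 groups; bars are group means and open diamonds are the 2 libraries with the most choroid plexus RNA. The diamonds are the highest points for Cox8b, at 2.92 and 3.73, and for Cox7a1 and Cox6b2, but not for Cox6a2, Cox4i2 or Cox7b2.

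Ratios within a library do not depend on the scaling between libraries. Cox6a2 made up 1.04%, 1.17% and 1.07% of the 2 subunit 6A genes in wild-type vehicle, 0.845%, 0.906% and 0.842% in mutant vehicle, 0.822%, 1.33%, 1.06%, 1.03% and 1.39% in wild-type TAK-418 and 1.13%, 1.44% and 1.09% in mutant TAK-418 libraries. All 3 mutant vehicle libraries lay under the wild-type vehicle and mutant TAK-418 libraries, and wild-type TAK-418 replicate 1 was as low. The log2 ratio differed by -0.34 between genotypes under vehicle and by 0.49 with the drug in mutants. The exact two-sided permutation p was 0.1 in both, the smallest that 3 against 3 libraries can give, and the adjusted p over the 15 ratio tests was 0.429.

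The c-ring of ATP synthase is encoded by 3 genes with the same mature protein. In wild-type vehicle libraries, Atp5g3 made up 48.7% ± 1.48 (SD, n = 3), Atp5g1 32.4% ± 1.02 and Atp5g2 18.9% ± 0.631 of their summed abundance. In wild-type TAK-418 libraries the shares were 51.8% ± 2.18 (SD, n = 5), 30.6% ± 1.30 and 17.6% ± 3.04. In mutants they were 49.8% ± 1.36, 32.0% ± 0.898 and 18.2% ± 0.952 (SD, n = 3) on vehicle and 49.8% ± 1.05, 30.5% ± 0.498 and 19.7% ± 0.722 (SD, n = 3) on TAK-418. The log2 ratio of Atp5g1 to Atp5g3 differed by -0.17 with the drug in wild types, with an exact two-sided permutation p of 0.0357. This is the smallest that 5 against 3 libraries can give, and it was the only 1 of 15 ratio tests under 0.05 unadjusted. With abundance weighted by transcript length the difference was -0.04 (exact permutation p 0.464), and with the highest transcript per gene -0.35 (exact permutation p 0.0714). Without the 2 libraries rich in choroid plexus RNA it was -0.15 (exact permutation p 0.0952). The groups still did not overlap there, and that p is the smallest that 5 against 2 libraries can give. None of the 15 was under 0.05 after adjustment, the smallest adjusted permutation p being 0.429. With so few libraries per group, no outcome could have put any of the 15 under 0.05 after adjustment. The adjusted values therefore cannot decide whether a ratio differed. Near-identical coding stretches and pseudogenes of these genes make the split of reads between them uncertain.

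The authors' 4 deposited tables give 1 pooled value per group and the authors' own test. Of 91 members tested in each table, 0 had a q under 0.05. The share of all loci called was 0.224% for mutant vehicle over wild-type vehicle, 0.218% for mutant TAK-418 over wild-type TAK-418, 0.324% for mutant TAK-418 over wild-type vehicle and 0.611% for mutant vehicle over wild-type TAK-418. At the authors' unadjusted p under 0.05 there were 0, 0, 2 and 1 members, beside 4.32%, 4.1%, 4.49% and 6.48% of loci. The members named were Cox8b and Cox7b2 for mutant TAK-418 over wild-type vehicle and Cox8b for mutant vehicle over wild-type TAK-418. Both are low genes, and in the last of these tables Cox8b had the authors' p of 0.00595 and q of 0.420.

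Against wild-type TAK-418 mice, nearly all members were slightly higher in the authors' deposited tables. In the table of mutant TAK-418 over wild-type TAK-418, 88 of 91 members had a log2 fold change above 0. Their median was 0.08, under the median of 0.12 over all loci, low ones included. In the table of mutant vehicle over wild-type TAK-418, 86 of 91 members were above 0, with a median of 0.10, under the median of 0.15 over all loci. Among the 83 members with both values of 10 or more, 82 were above 0 in each, beside 49.2% and 51.1% of all loci at that level. In the table of mutant TAK-418 over wild-type vehicle, 36 of 91 members were above 0 (median -0.01), and 32 of the 83, beside 53.2% of loci. In the table of mutant vehicle over wild-type vehicle, 52 of 91 were above 0 (median 0.01), and 48 of the 83, beside 50% of loci. The shares of loci below 0 at that level were 50.8%, 48.9%, 46.8% and 50% in the order of these tables. The first pair of tables share the wild-type TAK-418 libraries and the second pair the wild-type vehicle libraries, and all 4 rest on the same reads as the library values.

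Related genes gave no calls in limma either. The list of respiratory complex assembly factors outside the members, some of them of complex I, with cytochrome c, had 36 genes tested. Of these 36, 0 passed in each of the 6 comparisons, and their median for the drug in wild types was -0.08, with 31 of 36 below 0. The 16 genes of pyruvate dehydrogenase and the citrate cycle, which feed electrons to the chain, had 0 called in each comparison, 13 of 16 below 0 and a median of -0.06 for the drug in wild types. The 16 glycolysis genes had 0 called, 10 of 16 below 0 and a median of -0.03, and the 6 exchange carriers and porins 0 called, 6 of 6 below 0 and a median of -0.04. The 15 regulators of mitochondrial biogenesis, among them Ppargc1a, Nrf1, Gabpa and Tfam, had 0 called in each comparison, 8 of 15 below 0 and a median of -0.005. In these lists, 2, 2, 1, 0 and 0 genes in that order were under an unadjusted limma p of 0.05 for the drug in wild types, beside 8.44% of all genes. Among the biogenesis regulators it was 3 of 15 for the drug in mutants, beside 4.39% of all genes, and 2 of 15 each for the genotype under TAK-418 and the interaction, beside 4.92% and 4.42%. For the 13 subunits encoded in mitochondrial DNA, the assembly joined genes into long stretches, and no per-gene value was used here.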

How the data were processed

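RNA of 14 mouse hippocampus libraries was sequenced. FastQC, TopHat2 2.1.0 and the build mm10 are named in the submitters' processing notes, and CLASS 2.1.7 in the file headers. Per the file headers, the authors' transcript files hold an abundance score for each assembled transcript. Its scale, close to fragments per kilobase and M fragments, was read from the values, as no source names it. The authors' 4 comparison tables have the Cuffdiff layout and hold 1 FPKM value per group, a log2 fold change, a p-value and a q-value per locus, as deposited. Their group order was taken from the names of the tables and checked against the library values.

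Transcripts were assigned to GENCODE M21 genes by shared introns, or by exon overlap of at least 50% for single exons, and abundances were summed per gene. Where 2 annotated genes share a symbol, long transcripts were looked up for the first of them. How shared reads were divided between overlapping or near-identical genes is not given in the sources used here. Libraries were scaled by median of ratios. Genes needed a value in 3 or more libraries, which left 16568, and the test used log2(value + 0.878), the pseudocount being the 10th percentile of values above 0, so fold changes of low genes are understated. All 14 libraries entered 1 limma 3.58.1 fit (R 4.3.3, eBayes with trend) with 4 group means. Benjamini-Hochberg adjustment ran over all genes, with a threshold of 0.05 and 6 contrasts. On simulated data with 200 changed genes of above-median level, 84% of genes changed by 1 and 95% of those changed by 2 on the log2 scale were recovered for the genotype under vehicle, with 6 wrong calls among 16568 genes. Over the 6 contrasts these were 80% to 92%, 90% to 95% and 5 to 13 wrong calls. The simulated noise was independent between genes, and smaller changes were not simulated. The run therefore does not measure recovery of differences as small as those of most members. Ratios were compared by exact permutation tests. All other steps ran in Python 3.11.15 with pandas 2.3.3, scipy 1.17.1, numpy 2.4.6 and, for the plots, matplotlib 3.10.9.

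The members and lists were chosen with earlier results of these data known. Genes were named by fixed rules: core subunits, isoform genes, the 3 highest and 3 lowest per complex and, per contrast, up to 3 higher and 3 lower members with the smallest unadjusted p under 0.05. The complex of each member, the limit of 1 kb for long transcripts, the length classes, the level minimum of 20 and the promoters shown were chosen after seeing the values. So were Cox8b, Cox7a1, Cox6b2, Ndufb2 and Cox8a as genes to describe by library. A scaling over the members alone was tried and dropped, since it removes any shift they share.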

Additional observations from a re-analysis of the deposited data

Results flagged for a closer look

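The 5 wild-type TAK-418 libraries, the only group of more than 3, were screened for a library that stands far from the rest, in 44 measures. Chance gives about 1 such gap in 20 groups. Wild-type TAK-418 replicate 1, the deepest library, stood low in 5 of the 6 genes found: Ndufs1 at 61.7 (next lowest 71.6), Sdhd at 61.4 (next 70.3), Atp5a1 at 376 (next 454), Atp5g2 at 66.8 (next 106) and Cox8a at 0 (next 383). Cyc1 stood high in replicate 3, at 117 (next 109).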

How the results depend on the processing

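In all 6 comparisons, 0 members were called by limma under every alternative run. Of 167 medians over members recomputed under alternatives, 161 moved by less than the spread between libraries. For the genotype under vehicle, the median was -0.082 with abundances as deposited and no scaling, where the median of all genes was -0.076, and -0.074 without the 2 libraries rich in choroid plexus RNA. Without those 2 it was -0.17 for the drug in wild types and 0.14 for the interaction. For the genotype under TAK-418 it was -0.011 with no scaling, where the median of all genes was -0.075, so members lay above all genes there too. Leaving out 1 library at a time gave -0.05 to 0.06 for the genotype under vehicle, -0.08 to -0.003 for the drug in mutants, -0.172 to -0.065 for the drug in wild types, 0.04 to 0.11 for the genotype under TAK-418, -0.07 to 0.02 for treated mutants over vehicle wild types and 0.02 to 0.12 for the interaction. With abundance weighted by transcript length, Uqcrb turned direction in 3 comparisons, at -0.19 for the drug in wild types, 0.036 for the interaction and -0.15 when treated mutants were set against vehicle wild types. Atp5c1, Atp5g1, Cox4i2, Cox6a2, Cox7c, Ndufa5, Ndufaf2, Ndufb6, Ndufs6, Ndufs8 and Uqcrq, named by their p, kept their direction under all alternatives run, and no other single gene was recomputed. Of the planned isoform ratios, Cox7a1 to Cox7a2 was not run because Cox7a1 is at 0 in 6 libraries, and 1 other was not run because a gene it needs is not analysed here. No paired analysis was possible because replicate numbers were given in accession order only. Counts of reads are not used here, so no counting error was computed, and genes under the pseudocount of 0.878 are the least certain.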
